A study of Mus musculus with 2 samples.

Results

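The cells described here are the non-cycling coronary capillary endothelial cells found in mitral leaflets dissected from mouse embryos at E17.5, shortly before birth, and profiled by single-cell RNA sequencing in droplets, which reads the 3′ end of each messenger. The tested library, called mutant, came from embryos labelled Nfatc1-Cre, Dicer loxp/loxp, and the other library, called control, from embryos labelled wild type, with no treatment in either. Each genotype was 1 library made from leaflets pooled over 3 to 4 hearts, dissociated with 0.05% trypsin and sorted for live cells, so no replicate separates genotype from pool, preparation or sequencing run, and no test between genotypes is possible. Nfatc1-Cre is a driver of the endocardial lineage, whereas the capillaries of the heart have several embryonic sources, so the share of capillary cells that recombined Dicer1 is not known from the labels. The labels also do not say whether the wild-type embryos were littermates, or which part of Dicer1 lies between the loxP sites.

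Members were chosen by measured values alone. A cell was a member when its barcode had at least 500 genes, at least 1000 unique molecular identifiers (UMIs) and under 20% mitochondrial UMIs, when Pecam1, Cdh5 and Egfl7 together gave at least 3 UMIs, and when Mki67 and Top2a gave none. Gpihbp1, Fabp4, Aplnr and Cd36 together then had to reach at least 5 UMIs and to exceed each of 5 other sums, namely Npr3, Plvap and Col23a1, then Wnt4, Pthlh, Enpp2 and Prox1, then Gja5, Gja4 and Cxcl12 (arterial), then Vwf and Procr, and then Lyve1, Ccl21a, Mmrn1 and Reln (lymphatic). Of 17162 cells that passed the barcode filters, 2358 were members, 1036 of 6403 in the mutant library and 1322 of 10759 in the control library. Members had a median of 7103.5 UMIs and 2616.5 genes in the mutant library, against 4778 UMIs and 1991.5 genes in the control library, and together held 7955117 and 6942471 UMIs in the mutant and the control library. The median mitochondrial share was 3.50% in mutant and 3.15% in control members, and 4.92% of mutant and 6.43% of control members were called doublets. No member barcode was shared by the libraries. The pools differed in sex. In the mutant library 38.2% of members were female-type (a UMI of Xist and none of 4 Y-linked genes), 38.0% male-type and 23.7% open, whereas in the control library 93.4% were female-type, 0 of 1322 were male-type (exact 95% interval up to 0.279%) and 6.58% were open.

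Heart capillaries line the narrowest vessels of the myocardium and, unlike most endothelium, pass long-chain fatty acids to cardiomyocytes as a fuel. How far they do so at E17.5 was not tested. GPIHBP1 anchors lipoprotein lipase to the capillary wall, CD36 takes up the fatty acids that the lipase frees, and FABP4 binds them inside the cell. APLNR, the apelin receptor, marks the sprouting and venous-side plexus of the embryonic coronary vessels. DICER1, the targeted enzyme, cuts microRNA hairpins into mature microRNAs, among which the let-7 family accumulates late in development and miR-126 is made from an intron of the endothelial gene Egfl7. A mature microRNA pairs with a messenger mainly through bases 2 to 8, its seed. The RefSeq sequences below (GRCm38.p6) show the seeds in capitals. Of the listed targets, only Hmga2 was searched for a seed match in the values given later. mmu-let-7a-5p lies at chr13:48538239-48538260 (minus strand), mmu-let-7d-5p at chr13:48536078-48536099 (minus), mmu-let-7g-5p at chr9:106178846-106178867 (plus) and mmu-miR-126a-3p at chr2:26591402-26591423 (plus).
mmu-let-7a-5p: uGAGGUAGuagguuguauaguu
mmu-let-7d-5p: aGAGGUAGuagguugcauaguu
mmu-let-7g-5p: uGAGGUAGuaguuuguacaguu
mmu-miR-126a-3p: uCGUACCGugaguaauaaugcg
All 8 let-7 microRNAs with a 5p sequence in the table share the seed GAGGUAG, and miR-126a-3p has another, CGUACCG. Mature microRNAs themselves are not captured by this assay.

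Rgcc and Pcdh17, capillary markers that the rule did not use, were also high in the members. Both were picked as markers with these data known, so their levels describe the members and are no test. Rgcc, a regulator of the cell cycle found in capillary endothelium, stood at 217 CPM (UMIs of the gene per 1000000 UMIs of the class) in mutant and 241 CPM in control members. In the other non-cycling endothelial cells of the same libraries, 295 mutant and 879 control cells, it stood at 5.72 CPM and 2.02 CPM. Pcdh17, a protocadherin, stood at 461 CPM in mutant and 393 CPM in control members, against 25.7 and 19.2 CPM in the other mutant and control endothelial cells. Neither gene separated the members from their cycling counterparts, the capillary cells with a UMI of Mki67 or Top2a (1051 mutant and 1022 control cells), in which Rgcc stood at 197 and 214 CPM and Pcdh17 at 401 and 363 CPM in mutant and control. All counts of a class in a library were summed before scaling, so these levels carry counting error only.

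Of the genes that chose the cells, Fabp4 was by far the most abundant, at 10032 CPM in mutant and 9506 CPM in control members, and Gpihbp1 had 967 and 846 CPM, Cd36 776 and 644 CPM and Aplnr 287 and 220 CPM in mutant and control members. Their sum had a median of 84 UMIs per mutant member (5 to 353) and 54 per control member (5 to 261), which as a share of each cell's UMIs was close between the libraries. Few cells lay near the limits of the rule. Members with a sum of 5 to 7 UMIs numbered 12 in the mutant and 32 in the control library, and 14 mutant and 17 control cells with 3 or 4 UMIs fell just outside. Cells that led the next sum by 1 or 2 UMIs numbered 8 and 15, and 10 mutant and 9 control cells were tied and left out.

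**Figure D1:**
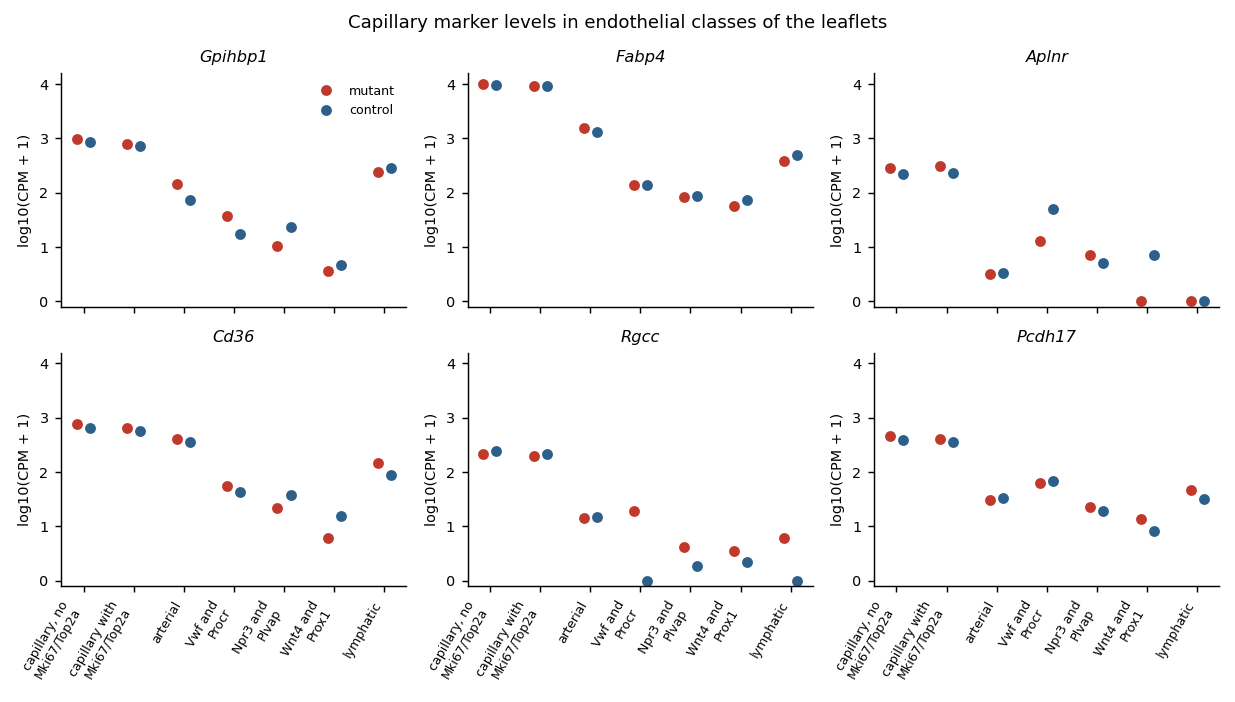
Levels of 6 capillary markers as log10(CPM + 1) in 7 endothelial classes of the mutant (red) and control (blue) library, from summed counts. Fabp4 lies at 9263 to 10032 CPM and Rgcc at 197 to 241 CPM in capillary cells of both libraries, with and without Mki67 or Top2a UMIs. Rgcc is under 20 CPM in every other class, and the Vwf and Procr and the lymphatic class hold fewer than 30 cells a library.

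Counted among the non-cycling endothelial cells, members made up a larger part of the mutant than of the control library. Their share was 73.3% of 1413 such cells in the mutant library (exact 95% interval 70.9 to 75.6) and 53.5% of 2473 in the control library (51.5 to 55.4). Of all kept cells they made up 16.2% (15.3 to 17.1) in the mutant and 12.3% (11.7 to 12.9) in the control library. The largest of the other endothelial classes, led by Npr3 and Plvap, held 161 mutant and 600 control cells. Members were 49.6% of all capillary cells in the mutant library and 56.4% in the control library, a split that rests on any UMI of Mki67 or Top2a and was not set at matched depth. These intervals cover counting error, and the part of dissection and depth was not tested. Members with under 3 UMIs of other cell types numbered 79 in the mutant and 298 in the control library. Deeper cells pass that limit less often. Set against all 1413 and 2473 non-cycling endothelial cells, which were not held to the limit, they made up 5.59% and 12.1%. The order of the libraries turned, but this is no share among cells under the limit.

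Beyond the genes of the rule, members were set apart from other non-cycling leaflet endothelium by genes of fatty acid handling, sprouting and capillary transport. Because the rule chose the cells, these ratios describe the members and are no test. Of 6907 genes with a mean of at least 20 CPM in the higher side, 264 (3.82%) exceeded the pooled other non-cycling endothelial classes by 2-fold or more in both libraries, and 499 (7.22%) fell short of them by as much. Of 17 measured fatty acid genes outside the rule, 7 were higher and 1 was lower. Lpl, lipoprotein lipase itself, stood at 264 and 181 CPM in mutant and control members, against 23.2 and 22.6 CPM in the other mutant and control endothelial cells. Mgll, which frees fatty acids from monoglycerides, stood at 368 and 337 CPM, against 46.4 and 32.7 CPM. TCF15 and MEOX2 form a transcription factor pair known in mouse heart endothelium to drive fatty acid uptake. Tcf15 stood at 396 and 427 CPM, against 45.7 and 40.4 CPM, and Meox2 at 128 and 128 CPM, against 11.4 and 4.84 CPM. The others were Pparg, Acsl1 and Angptl4, an inhibitor of lipoprotein lipase, and the 1 lower gene was G0s2, an inhibitor of fat breakdown. The median log2 ratio of this list was 0.85 in the mutant and 0.93 in the control library, against -0.13 and -0.10 over all genes.

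Sprouting genes gave 8 higher and 0 lower of 18. Apln, the apelin ligand, stood at 54.9 and 65.4 CPM in mutant and control members, against 19.6 and 12.5 CPM in the other mutant and control endothelial cells. Kcne3, a potassium channel subunit expressed by tip cells, stood at 36.6 and 53.01 CPM, against 1.07 and 1.41 CPM. Pdgfb, Nid2, Lxn, Adm, Sparc and Rgcc were the others. Of 17 genes of mature capillaries and transport outside the rule, 6 were higher and 0 lower, namely Cav1, the coat protein of caveolae, Btnl9, Sgk1, Tcim, Ly6c1 and Ly6e. Btnl9 had 237 and 199 CPM in mutant and control members, against 40.0 and 20.99 CPM in the other cells. Kdr, the main VEGF receptor, stood at 809 and 716 CPM, against 324 and 250 CPM.

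The genes with the highest ratios included several of unlike function. Nos2, the inducible nitric oxide synthase, stood at 24.3 and 19.2 CPM in mutant and control members, against 0.357 and 0.404 CPM in the other endothelial cells. Vwa1, a matrix protein, stood at 93.4 and 80.2 CPM, against 3.22 and 1.82 CPM. C1qtnf9, a secreted relative of adiponectin, had 39.8 and 36.3 CPM, and Clec1b, the podoplanin receptor best known from platelets, 46.1 and 50.3 CPM in mutant and control members. The remaining leaders were Rgcc, Kcne3, Gpr183, Rsad2, Abcb1b, Pcdh17, Sez6l2, Pcdh19, Meox2, Ablim3, Mcf2l, Ifi203, St8sia4, Angptl4, Tbx3 and Kcna5, and 16 of these 20 were also at least 2-fold above arterial cells in both libraries. The cycling capillary cells were not part of this comparison and held these genes too. Kcne3 stood there at 43.8 and 54.9 CPM, Meox2 at 139 and 135 CPM and Sez6l2 at 39.0 and 29.3 CPM in mutant and control. Not all of the leaders were endothelial alone in these leaflets. Gpr183, a receptor for oxysterols, stood at 23.0 and 23.9 CPM in mutant and control members but 88.7 and 103 CPM in macrophages, and Ifi203 and St8sia4 were likewise higher in macrophages than in members.

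The promoters below are shown because Rgcc and Pcdh17 marked the members without having chosen them. RefSeq gives the 300 bases around each start (GRCm38.p6), Rgcc at chr14:79301586-79301885 on the minus strand and Pcdh17 at chr14:84443313-84443612 on the plus strand. Capitals mark a match to AGGAAG, an ETS-type motif, read on either strand.
Rgcc promoter: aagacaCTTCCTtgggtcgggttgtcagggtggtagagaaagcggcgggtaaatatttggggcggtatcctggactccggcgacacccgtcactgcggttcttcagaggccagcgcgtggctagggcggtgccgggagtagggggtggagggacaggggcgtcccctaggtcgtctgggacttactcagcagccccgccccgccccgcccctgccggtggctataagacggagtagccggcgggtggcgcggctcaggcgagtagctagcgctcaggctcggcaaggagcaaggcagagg
Pcdh17 promoter: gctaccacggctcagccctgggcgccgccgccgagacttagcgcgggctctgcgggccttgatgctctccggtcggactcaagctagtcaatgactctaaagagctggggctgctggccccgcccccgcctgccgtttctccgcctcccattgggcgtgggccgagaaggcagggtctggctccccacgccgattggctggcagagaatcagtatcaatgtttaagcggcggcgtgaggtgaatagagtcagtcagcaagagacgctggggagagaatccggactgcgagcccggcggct
Rgcc held 1 match and Pcdh17 none. Of the 20 leading genes 14 had a promoter in the table, and 8 of these held AGGAAG in any listed promoter. Counted promoter by promoter, 35.4% of all 32851 of that length held it. A gene with several promoters has more places for a match, so genes and promoters are unlike units here. The homeobox core TAATTA was in 0 of the 14 and in 5.29% of all promoters.

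Most valve and endocardial genes were lower in the members. Of 18 genes of that list outside the rule, 14 were at least 2-fold lower and 0 higher in both libraries, with a median log2 ratio of -2.83 in the mutant and -2.78 in the control library. Nrg1, an ERBB ligand made by endocardium, stood at 1.51 and 3.75 CPM in mutant and control members, against 182 and 115 CPM in the other mutant and control endothelial cells. Cytl1, a secreted protein, stood at 0.251 and 3.60 CPM, against 139 and 130 CPM. Ahsg, Fzd10, Lsamp, Smoc1, Irx5, Prrt4, Wnt9b and Sall1 completed the 10 lowest. Venous genes outside the rule gave 1 higher and 9 lower of 16, BMP and TGF-β genes 1 and 9 of 23, and imprinted growth genes 1 and 11 of 17, with Mest as the 1 higher and H19, Igf2 and Cdkn1c among the lower. The 13 measured genes of microRNA processing gave 0 higher and 0 lower.

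Capillary markers stood at similar levels in members and cycling capillary cells, and several arterial genes were higher in members. Of 6508 genes, 82 (1.26%) exceeded the cycling capillary cells by 1.5-fold or more in both libraries and 400 (6.15%) fell short by as much, the lower ones including the genes of division that the rule selects against. Among the higher genes were Cxcl12, the ligand of CXCR4, at 174 and 119 CPM in mutant and control members against 43.6 and 29.1 CPM in cycling cells, and Gja4, connexin 37 of arteries, at 147 and 117 CPM against 41.6 and 37.7 CPM. Gja5, connexin 40, stood at 37.7 and 22.8 CPM against 7.95 and 7.90 CPM, and Cxcr4, the receptor, at 53.9 and 42.3 CPM against 16.7 and 14.8 CPM. The rule caps Gja5, Gja4 and Cxcl12 at less than the capillary sum in both kinds of cell. Hey1, Sema3g, Vegfc, Mecom, Alox12, Slc45a4, Vwf and Stmn2 were higher as well, as were Tcp11l2, Pik3ip1 and Mxd4. These genes were picked after their values were seen, and no list was counted against cycling cells. Against the arterial cells, 68 mutant and 101 control cells, 183 of 6774 genes (2.7%) passed 2-fold upward and 380 (5.61%) downward in both libraries. Arterial cells kept Cd36 at 403 and 361 CPM in mutant and control but held Aplnr at 2.25 and 2.30 CPM. Both genes belong to the capillary sum, which the rule held below the arterial sum in those cells.

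Members were not alike, and arterial and venous genes were among those that varied. The splits that follow were chosen after values were seen and are descriptions, and a cell with a UMI tends to be a deeper cell. A UMI of Gja5, Gja4 or Cxcl12 was present in 364 of 1036 mutant members (35.1%) and 366 of 1322 control members (27.7%). With every cell thinned to 3000 UMIs, which left 907 mutant and 1049 control members, the share was 27.3% (24.5 to 30.4) and 22.7% (20.2 to 25.3) in mutant and control, against 0.962% and 1.85% of macrophages and 5.79% and 4.69% of interstitial cells. Median depth with such a UMI was 7366 in mutant and 5062 in control members, and without one 7046.5 and 4688.5. Of 6070 genes, 62 (1.02%) passed 2-fold upward and 27 (0.445%) downward in members with an arterial UMI, in both libraries.

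Several genes outside the rule differed by more than 4-fold between these members. Slc45a4, a solute carrier, stood at 75.02 CPM in mutant members with an arterial UMI and 4.00 CPM in those without, and at 65.9 and 3.44 CPM in the same control members. Igfbp2, which binds insulin-like growth factors, stood at 76.7 against 4.204 CPM in mutant and 55.4 against 5.67 CPM in control members. Vegfc, a growth factor of lymphatic and coronary vessels, stood at 141 against 24.2 CPM in mutant and 143 against 15.6 CPM in control members. Cxcr4 had 109 against 21.02 CPM and 105 against 17.0 CPM, and Hey1, a Notch target of arteries, 191 against 30.6 CPM and 153 against 31.6 CPM. Genes on the other side included Odc1, the first enzyme of polyamine synthesis, at 54.1 CPM with and 195 CPM without an arterial UMI in mutant members and 63.4 and 218 CPM in control members. Nr2f2, the transcription factor of vein identity, stood at 32.1 against 100 CPM in mutant and 56.4 against 116 CPM in control members. Aplnr, a gene of the rule, was also lower with an arterial UMI, at 107 against 395 CPM in mutant and 71.9 against 280 CPM in control members.

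Splitting the members by a UMI of Nr2f2, present in 283 mutant and 349 control cells, set several of the same arterial genes low. Of 6072 genes, 24 (0.395%) passed 2-fold upward and 26 (0.428%) downward with Nr2f2 in both libraries, the lower ones led by Cxcr4, Slc45a4, Igfbp2, Sema3g, Alox12, Hey1 and Unc5b. The higher ones, Eln, Cpe, Cdh11, Dlk1, Fbln2 and Col6a1 among them, include matrix genes of interstitial cells. Thinned, Nr2f2 was found in 15.2% of mutant and 18.9% of control members, against 16.8% and 12.97% of interstitial cells, and the part of interstitial RNA in this split was not tested.

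**Figure D2:**
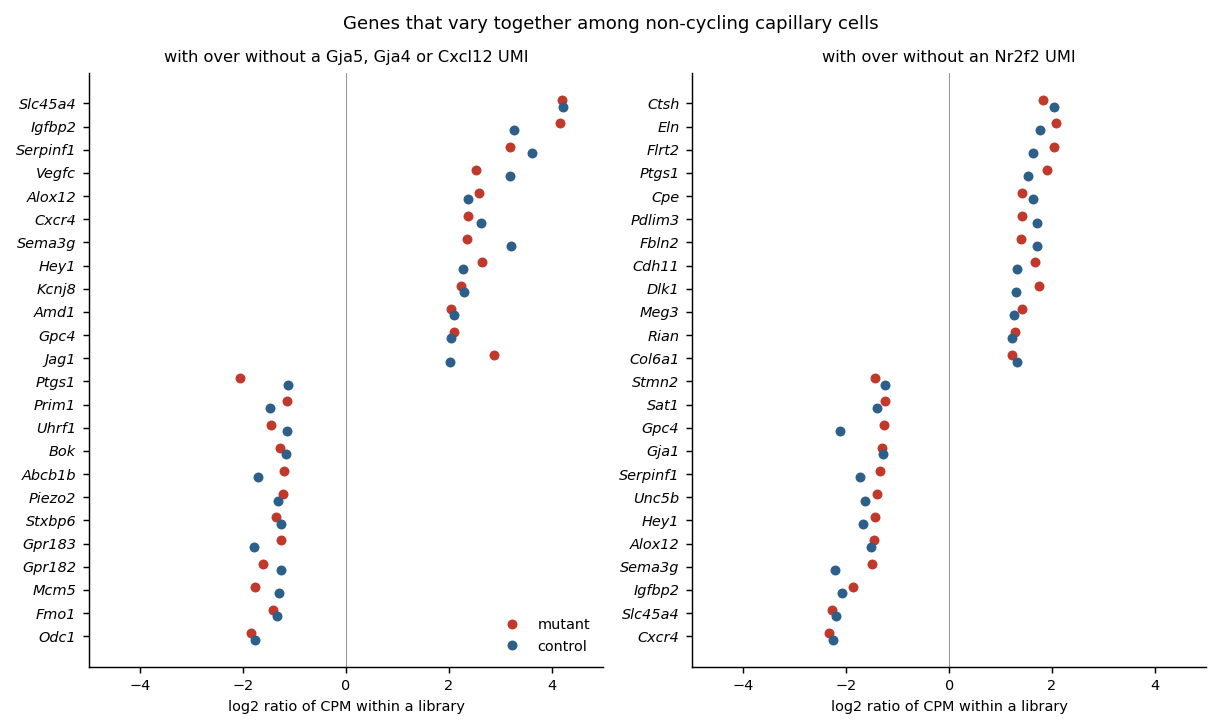
Log2 ratio of CPM in members with over members without a UMI of Gja5, Gja4 or Cxcl12 (left) and of Nr2f2 (right), for the 12 highest and 12 lowest genes of each split outside the rule, in the mutant (red) and control (blue) library. Slc45a4, Igfbp2, Cxcr4, Hey1, Sema3g and Alox12 lie to the right of 0 on the left panel and to the left of 0 on the right panel in both libraries.

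Other single genes gave further splits, of unequal cell numbers. Kcne3, found in 135 mutant and 160 control members, came with 10 higher genes (0.165% of 6072) and 40 lower (0.659%). Igfbp3 was among the higher, at 616 CPM with and 193 CPM without Kcne3 in mutant members and 366 and 176 CPM in control members, together with Plaur, Adm and Odc1. Cxcl12, Vegfc, Gja5 and Klf4 were among the lower. Rsad2, found in 226 mutant and 142 control members, came with 1 higher gene, Fmo1 (0.0165%), and 21 lower (0.346%), and Igfbp3 was on the lower side here, at 80.8 CPM with and 326 CPM without Rsad2 in mutant members and 62.2 and 225 CPM in control members. Car4, a carbonic anhydrase of mature capillaries, was found in 121 mutant and 66 control members and came with 0 higher and 20 lower genes (0.329% of 6073), Vegfc, Vwf and Jag1 among them. Apln, found in 230 and 277 members, came with 1 higher and 1 lower gene (0.0165% each), Gja5 and Ssu2.

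The targeted gene, Dicer1 (chromosome 12, 104687742 to 104751952, minus strand, mm10), was only slightly lower in mutant members. It stood at 57.8 CPM in mutant and 70.1 CPM in control members, a log2 ratio of -0.28 (exact 95% counting interval -0.47 to -0.09). Cycling capillary cells gave -0.35 (60.6 and 77.2 CPM) and arterial cells 0.14 (99.1 and 89.7 CPM). The Npr3 and Plvap class gave -0.97, with 44.3 CPM in mutant and 87.2 CPM in control cells, and the Wnt4 and Prox1 class -1.83, with 23.2 and 86.5 CPM. The intervals of both lie below that of the members. Reads come from the 3′ end of the messenger, so a messenger that lost an internal exon would still be counted, and the level does not measure recombination. Nfatc1, whose Cre allele drives the deletion, stood at 22.5 CPM in mutant and 29.0 CPM in control members, against 331 and 229 CPM in the Wnt4 and Prox1 class.

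Mutant and control members were close over most genes. Of 6073 genes with a mean of at least 20 CPM, 76 (1.25%) differed by 1.5-fold or more, 44 (0.725%) upward and 32 (0.527%) downward in mutant members, and 8 (0.132%) and 7 (0.115%) passed 2-fold. The median log2 ratio was 0.02, and the 5th and 95th percentiles were -0.26 and 0.33. Within the mutant library, female-type over male-type members (396 and 394 cells) gave 75 higher and 22 lower of 6074 genes at 1.5-fold. Fewer cells stand behind those ratios, and their overlap with the genotype calls was not tested. The capillary markers all lay within 1.5-fold between the genotypes, but Aplnr lay above the 95th percentile of all genes. Pcdh17 gave a log2 ratio of 0.23 (0.16 to 0.30) and Rgcc -0.15 (-0.25 to -0.05), and among the genes of the rule Fabp4 gave 0.08, Gpihbp1 0.19, Cd36 0.27 and Aplnr 0.39. In thinned cells Rgcc was found in 39.3% of mutant and 43.8% of control members and Pcdh17 in 64.2% and 58.6%, whereas under 3% of macrophages and interstitial cells held either gene. Tcf15, Meox2 and Kdr were found in 61.7%, 30.7% and 88.1% of mutant and 65.8%, 28.6% and 84.0% of control members.

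Most genes past 1.5-fold were either erythroid, mitochondrial, sex-linked, ribosomal or unnamed, or far more abundant in another class. A higher level elsewhere does not show whether members made the messenger themselves. Of the 44 higher genes, 5 were erythroid, mitochondrial, sex-linked, ribosomal or unnamed, and 18 had less of the messenger than the highest other class divided by 5, namely 14 genes of cardiomyocytes (Myh7, Myl2, Tnnt2 and Fabp3 among them), the arterial genes Gja5, Sema3g and Serpinf1, and Kcnj8 of mural cells. Of the 32 lower genes, 3 were of the left-out kinds and 24 were below that limit, 8 of them highest in interstitial cells, 5 in the Npr3 and Plvap class and 3 each in macrophages, epicardial cells and the Vwf and Procr class. The summed markers of cardiomyocytes were higher, and those of interstitial cells and macrophages lower, in the mutant members too, and their part in these calls was not tested. All 8 cardiomyocyte markers were detected in both libraries, at 1039 CPM in mutant and 670 CPM in control members. All 8 interstitial markers were detected too, at 1282 and 1622 CPM, and all 8 macrophage markers, at 65.2 and 86.6 CPM. Erythroid markers stood at 860 and 223 CPM, with Slc4a1 at 0 in both. Mural markers stood at 248 and 214 CPM, Abcc9 alone giving 118 and 89.7 CPM, with Myh11 at 0 in control members. Epicardial markers stood at 104 and 108 CPM, Wt1 alone giving 92.8 and 82.7 CPM, with Upk1b, Lrrn4 and Muc16 at 0 in mutant members. Lymphoid and mast markers stood at 64.9 and 64.4 CPM, of which Kit alone gave 63.9 and 61.5 CPM. Cd3e, Trbc2 and Ms4a1 were at 0 in both and Cd7 at 0 in mutant members. Whether members made Abcc9, Wt1 and Kit themselves was not tested. Melanocyte and glial markers stood at 6.54 and 12.1 CPM, with Mlana and Sox10 at 0 in mutant members. That left 21 higher and 5 lower genes.

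**Figure D3:**
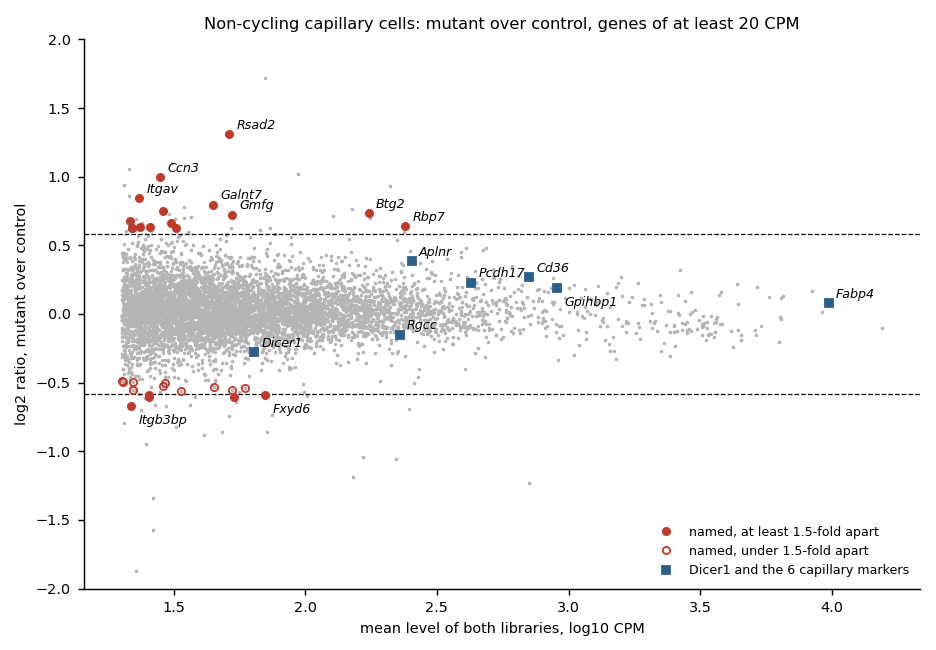
Log2 ratio of mutant over control CPM against the mean level (log10 CPM) for genes of at least 20 CPM in members, with 3 genes outside the plotted range. Filled red points are named genes past 1.5-fold (dashed lines), open circles named genes within it, and blue squares Dicer1 and the 6 capillary markers, which lie between -0.28 and 0.39.

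Rsad2 had the highest ratio of these. It encodes viperin, an enzyme known as an antiviral product of interferon signalling, and lies at chromosome 12, 26442746 to 26456452 (minus strand). It stood at 73.0 CPM in mutant and 29.4 CPM in control members, a log2 ratio of 1.31 (1.08 to 1.55), and at 76.3 and 29.3 CPM in cycling capillary cells (1.38). After thinning, 12.2% of mutant and 6.96% of control members held a UMI, against 2.88% and 1.85% of macrophages. In the list of interferon and antigen presentation genes 0 of 9 measured genes passed 1.5-fold in either direction (median log2 ratio 0.16), with H2-K1, a class I molecule, highest at 0.50. Among female-type members alone the Rsad2 ratio was 0.94.

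Ccn3, Itgav, Galnt7, Peg10 and Btg2 came next by ratio. Ccn3, a matricellular protein, stood at 37.5 CPM in mutant and 18.7 CPM in control members (log2 ratio 0.997, 0.70 to 1.31). It was also higher in mutant interstitial cells, at 173 CPM against 78.5 CPM in control ones, and the part of their RNA was not tested. Itgav, the αv integrin chain, stood at 30.04 and 16.7 CPM (0.84, 0.52 to 1.18), and at 104 and 37.3 CPM in the Npr3 and Plvap class (1.48). Galnt7, which starts O-linked sugar chains, stood at 56.6 and 32.6 CPM (0.80, 0.56 to 1.03), with ratios of 0.36 in cycling capillary, 1.11 in Npr3 and Plvap and 0.98 in interstitial cells. Gmfg, a regulator of branched actin, stood at 65.7 and 39.8 CPM (0.72, 0.51 to 0.94) and gave 0.73 in cycling capillary cells, and its levels in macrophages were 279 and 179 CPM. Gmfg overlaps Samd4b on the opposite strand, and without the strand setting of the counting their reads cannot be told apart.

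Btg2, an antiproliferative gene induced early after stress, stood at 217 CPM in mutant and 131 CPM in control members (0.73, 0.62 to 0.85), and it was higher in mutant cells of most other classes. Its ratio was 0.84 in cycling capillary, 1.01 in arterial, 1.02 in Npr3 and Plvap, 1.15 in Wnt4 and Prox1, 0.83 in interstitial and 1.12 in mural cells, whereas the intervals of cardiomyocytes and epicardial cells include 0. Ddit4, an inhibitor of mTOR signalling, stood at 39.2 and 25.4 CPM (0.63, 0.36 to 0.90), but its ratio turned to -0.11 among the few members with under 3 UMIs of other cell types. Rbp7, a retinol-binding protein of endothelium, stood at 291 and 187 CPM (0.64, 0.54 to 0.74), with 0.56 in cycling capillary and 0.77 in arterial cells. Alox12, a lipoxygenase, stood at 28.7 and 18.4 CPM (0.63, 0.32 to 0.96). Igfbp2 stood at 31.2 and 20.02 CPM (0.64, 0.33 to 0.95), but at -0.47 in cycling capillary cells and -0.42 in members without an arterial UMI. In members without one its level lay under the limit of 20 CPM in both libraries. The ratio of -0.42 is therefore not resolved and does not show which members set the direction. The remaining named genes were Peg10 (36.2 and 21.5 CPM, 0.75), an imprinted gene derived from a retrotransposon, the activin receptor Acvr2b (26.5 and 16.6 CPM, 0.68), Lrrc3b (38.0 and 23.9 CPM, 0.66), and Armcx6 and Zfp945, which both had 26.5 and 17.1 CPM (0.63).

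The 5 lower genes were all near the 1.5-fold limit. Nostrin, which moves endothelial nitric oxide synthase away from the membrane, stood at 42.4 CPM in mutant and 64.5 CPM in control members, a log2 ratio of -0.61 (-0.82 to -0.40). It was similarly lower in cycling capillary cells, at 51.2 and 74.2 CPM (-0.54), whereas the Npr3 and Plvap class gave 0.47 with an interval that includes 0. Fxyd6, a regulator of the sodium pump, stood at 56.2 and 84.4 CPM (-0.59, -0.77 to -0.41), and at -0.58 in interstitial cells and -0.15 in cycling capillary cells. Itgb3bp, a centromere protein, stood at 16.8 and 26.8 CPM (-0.67), Cd3eap, an RNA polymerase I subunit, at 20.1 and 30.7 CPM (-0.61), and Ddt, a tautomerase, at 20.4 and 30.7 CPM (-0.59). Among members with under 3 UMIs of other cell types the Ddt ratio turned to 0.31. Itgb3bp overlaps Efcab7 and Pgm1 and Cd3eap overlaps Ercc1 on the opposite strand. Of the next 10, which missed 1.5-fold, Creb3l2, a transcription factor of the secretory pathway, stood at 42.6 and 62.7 CPM (-0.56) but at 0.04 in cycling capillary and 0.45 in Npr3 and Plvap cells. Kcne3 stood at 36.6 and 53.01 CPM (-0.53, -0.76 to -0.31) and at -0.33 in cycling capillary cells. Ptprs, Snhg4, Fam167b, Ulk4, Rad17, Zfp598, Cenpw and H2afy2 lay between -0.56 and -0.49, and Ulk4, Rad17 and H2afy2 overlap Ctnnb1, Ak6 and Aifm2. Rad17 turned to 0.23 among the members with under 3 UMIs of other cell types.

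**Figure D4:**
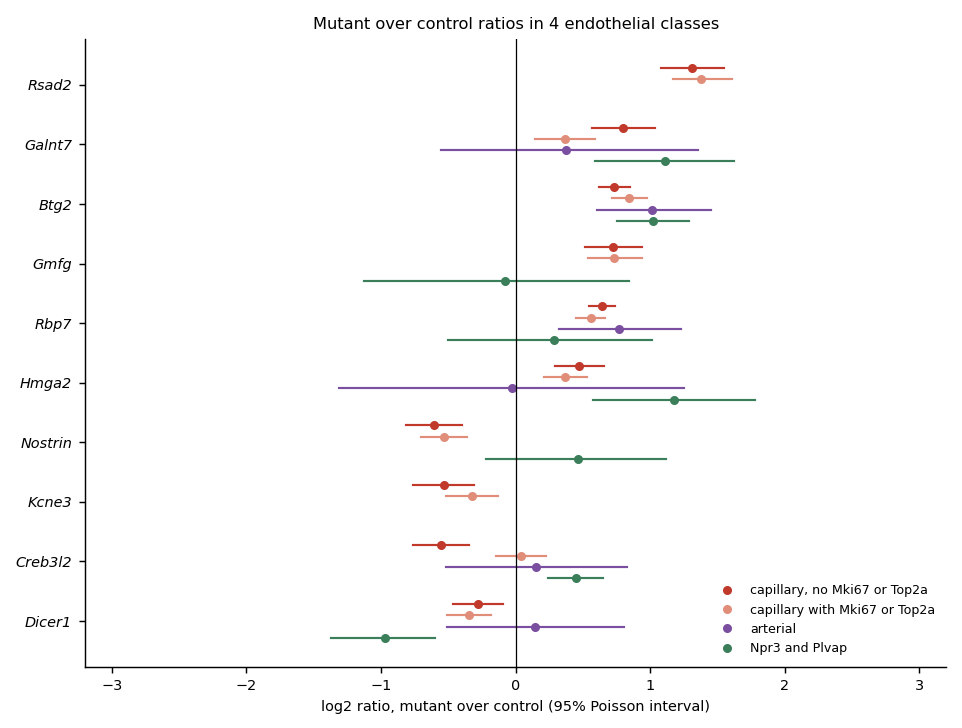
Mutant over control ratios of CPM (log2) with exact 95% Poisson intervals for 10 genes in members, cycling capillary cells, arterial cells and the Npr3 and Plvap class, leaving out pairs with under 20 UMIs over both libraries. Both capillary classes lie on the same side of 0 for all of these genes except Creb3l2, and the Npr3 and Plvap class lies far below them for Dicer1.

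Arterial genes lay mostly above the median gene in mutant members. In this and the following lists the genes of the rule, the 3 gate genes included, are left out of the counts. Of 20 measured arterial genes, 17 lay above 0, 3 were at least 1.5-fold higher and 2 lower, and the median log2 ratio was 0.30, against 0.02 over all genes. Sema3g, a semaphorin, had 29.4 CPM in mutant and 18.6 CPM in control members (0.66), beside Rbp7 and Alox12. Below 1.5-fold, Jag2, a Notch ligand, 86.4 and 60.4 CPM (0.52), Hey1 90.1 and 66.7 CPM (0.43) and Sox17 199 and 151 CPM (0.40). The 2 lower genes, Mgp (109 and 224 CPM, -1.04) and Eln (42.6 and 66.4 CPM, -0.64), are also matrix genes of other leaflet cells. The genes of the rule, which caps them, had 37.7 CPM in mutant and 22.8 CPM in control members for Gja5 (0.73), 174 and 119 CPM for Cxcl12 (0.55) and 147 and 117 CPM for Gja4 (0.33). In members without a UMI of Gja5, Gja4 or Cxcl12, an alternative added after values were seen, the median of the whole list was 0.05, with Gja5, Gja4 and Cxcl12 at no UMIs by that choice. The 61 genes outside the rule that were higher with an arterial UMI had a median ratio of 0.28 over all members, and of 0.11 within members with and 0.13 within members without such a UMI.

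Venous genes had a median of -0.13, with 0 higher and 2 lower of 13. These were Apoe (144 CPM in mutant and 299 CPM in control members, -1.06), abundant in macrophages, and Cpe (34.1 and 61.9 CPM, -0.86). Nr2f2 stood at 74.8 and 98.5 CPM (-0.40, -0.56 to -0.24) and Ackr3, a scavenger of CXCL12, at 21.2 and 30.7 CPM (-0.53), whereas Ephb4, the receptor of veins, lay at 0.24 and Icam1 at 0.44. The 23 genes outside the rule that were higher with Nr2f2 had a median of -0.48, and the interstitial marker sum given above was lower in mutant members as well. With thinned cells the median of the whole venous list, with the rule genes Aplnr and Vwf, was 0.09.

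Flow-responsive genes were all slightly above 0, 11 of 11, with none past 1.5-fold and a median of 0.24. Klf2, the flow-induced transcription factor, stood at 577 CPM in mutant and 459 CPM in control members (0.33), Smad6 at 0.42 and Icam1, also in the venous list, at 0.44. Endothelial identity and junction genes lay above 0 in 30 of 32 cases, with 0 past 1.5-fold and a median of 0.17, and Cldn5, the tight junction claudin, was highest at 566 and 406 CPM (0.48). Medians above 0 were not particular to these lists. Glycolysis and hypoxia genes had 0.19 and unfolded protein response genes 0.12. Only the venous, fibrous matrix, cell cycle, and endocardial and valve lists had medians below 0. The median over all genes was 0.02, and the share of all genes above 0 is not given here. Among mature capillary genes (median 0.25, 17 measured, 1 higher and 0 lower) Kcnj8, a channel subunit of mural cells, was higher (42.9 and 26.4 CPM, 0.70). Plvap, a gene of the rule, was at 29.0 CPM in mutant and 53.4 CPM in control members (-0.88). Cav2 lay at 0.46, Tcim at 0.45, Ly6c1 at 0.33 and Btnl9 at 0.25. Car4, at 25.4 CPM in mutant and 12.8 CPM in control members (0.98, 0.62 to 1.36), lay just below the level limit of the list. A UMI of Car4 was present in 7.28% (5.67 to 9.17) of thinned mutant and 3.05% (2.10 to 4.28) of thinned control members, against 0% of macrophages in both.

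Fatty acid genes had a median of 0.19, with 1 of 16 higher, Fabp3 (45.5 CPM in mutant and 27.8 CPM in control members), one of the cardiomyocyte genes above. Lpl stood at 264 and 181 CPM (0.54, 0.44 to 0.64) and at 0.39 in cycling capillary cells. Interstitial cells of the mutant library also had more Lpl, at 177 CPM against 92.9 CPM in control ones, and the share of thinned cells with a UMI, 35.3% of mutant and 29.7% of control members, stood beside 33.1% and 20.3% of interstitial cells. The part of interstitial RNA in this value was not tested. Sprouting genes gave 0 past 1.5-fold of 18 and a median of 0.20, with Nid2, a basement membrane protein, at 0.40 and Apln at -0.25 (54.9 and 65.4 CPM). Apelin, VEGF and angiopoietin genes had 1 higher of 16, Sema3g, and Notch genes 0 of 12, with medians of 0.18 and 0.15. BMP and TGF-β genes had 0 of 20 past 1.5-fold and a median of 0.13, with the receptors Tgfbr3 and Tgfbr1 highest at 0.57 and 0.54. Basement membrane genes had a median of 0.14 over 18.

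Collagens and other fibrous matrix genes went the other way, with 14 of 16 below 0, 3 lower (Col6a3, Eln and Dcn) and a median of -0.24. Endocardial and valve genes had 1 lower of 8, Cdh11 (13.2 CPM in mutant and 39.5 CPM in control members, -1.58), and a median of -0.29. Genes of both lists are abundant in the interstitial or Npr3 and Plvap cells, whose numbers also differed between the libraries, and their part was not tested. Cell cycle genes other than the pair used by the rule lay below 0 in 16 of 20 cases, with 0 past 1.5-fold and a median of -0.15, and Cdkn1c, an inhibitor of the cycle that is also imprinted, lay at -0.40.

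Messengers listed as microRNA targets had medians among those of lists of other function. Unfolded protein response genes had 0.12 and basement membrane genes 0.14. Of 23 measured let-7 targets 1 was higher, Peg10, and 0 were lower, with a median log2 ratio of 0.09 and 14 above 0. The let-7 list includes the targeted gene, Dicer1, and Col1a2, one of the interstitial markers. Hmga2, a chromatin protein of fetal tissue and the classical let-7 target, stood at 82.7 CPM in mutant and 59.6 CPM in control members (0.47, 0.29 to 0.65). Its ratio was 0.37 in cycling capillary cells (85.4 and 66.3 CPM), 1.17 in the Npr3 and Plvap class (31.2 and 13.8 CPM) and 0.68 in interstitial cells (93.7 and 58.4 CPM), and in thinned members it was 0.24. Igf2bp2, an RNA-binding protein, stood at 54.2 and 41.2 CPM (0.39) and Ccnd2, a cyclin, at 128 and 162 CPM (-0.35). The 3′ UTR of Hmga2 has 2977 bases (GENCODE M21, GRCm38) and holds 4 matches to the let-7 seed, CTACCTC, shown in capitals with the bases before and the base after them. They lie on the minus strand at chr10:120364224-120364252, chr10:120362987-120363015, chr10:120362549-120362577 and chr10:120361691-120361719.
Hmga2 site 1: gggggcgccgacattcaatttCTACCTCa
Hmga2 site 2: aataatccccactcctcaataCTACCTCt
Hmga2 site 3: gacttcctgatttgcaaggaaCTACCTCc
Hmga2 site 4: ttgtacaatcaaaacacactaCTACCTCt
The first is the only one of the 4 followed by an A, the base that extends a seed match. Targets of miR-126 and of the miR-17-92 cluster had 0 of 12 past 1.5-fold and a median of 0.13, with Bcl2l11, a pro-apoptotic factor, at 0.48 and Spred1, a brake on VEGF signalling and a known miR-126 target, at -0.03 (61.6 and 63.1 CPM). The 10 measured genes of microRNA processing had 0 past 1.5-fold and a median of 0.16.

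Stress and growth lists completed the comparison. Immediate early and dissociation genes had 1 higher of 22, Btg2, with 19 above 0 and a median of 0.19. Glycolysis and hypoxia genes had 1 higher of 25, Ddit4, and a median of 0.19, with Pdk1, a kinase that limits pyruvate oxidation, at 0.50. Unfolded protein response genes lay above 0 in 17 of 17 cases with 0 past 1.5-fold, a median of 0.12 and the chaperone Calr at 0.35. The p53 list had 0 past 1.5-fold of 11 and a median of 0.05, and imprinted growth genes had 1 higher of 15, Peg10, and a median of 0.09.

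**Figure D5:**
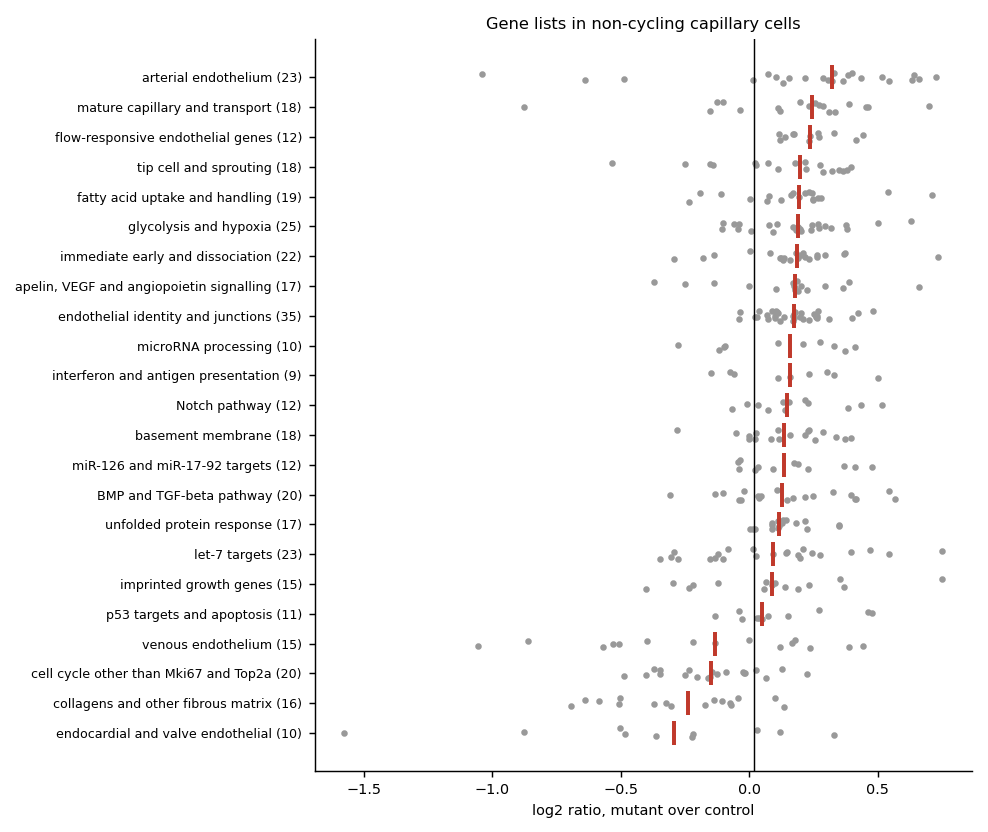
Log2 ratio of mutant over control CPM for each measured gene (grey points) of 23 gene lists in members, with the list's median (red bar) and the median over all genes (vertical line, 0.02). The number of genes measured stands beside each name. Genes of the rule are shown and enter these medians, which run between 0.32 for arterial genes and -0.29 for endocardial and valve genes.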

How the data were processed

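The authors deposited raw UMI counts per gene and barcode for 1 library per genotype, for which the submitters' processing notes name Cell Ranger 5.0.0 and mm10, from 10x 3′ libraries per the labels' protocols. Counting options and any earlier barcode filter are not given in the sources used here. The mutant library held 69475632 UMIs in 8250 barcodes and the control library 70221728 UMIs in 12793. Both list 32285 genes, and 19 barcodes occur in both libraries.

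Members were chosen by the rule given above, and the other endothelial classes by the same rule with another sum in the lead. The members and the 23 gene lists were chosen with earlier results of these data known. The UMIs of each class were added up within a library and expressed as CPM. Log2 ratios set the mutant against the control level after adding 0.5 counts, with exact conditional Poisson intervals, and shares of cells have exact Clopper-Pearson intervals, at 95%. Intervals cover counting error only, and there is no replicate and no p-value. A gene was tested at a mean of at least 20 CPM and counted at 1.5-fold or more (2-fold between classes).

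Named genes were the 15 highest and 15 lowest ratios, without erythroid, mitochondrial, ribosomal protein, sex-linked and unnamed genes and without genes whose higher level in members was under that of another class of at least 15 cells in the same library divided by 5. From each list up to 6 genes with the largest absolute ratio could be named, and against other endothelial cells the 20 highest and 10 lowest. Outside these ranks, the genes named for the splits and against cycling cells, the list genes Mgll, Pparg, Acsl1, G0s2, Lxn, Sgk1 and Mest against other endothelial cells, and Btnl9, Car4, Ephb4, Kdr, Meox2, Nr2f2, Spred1 and Tcf15 between genotypes were picked after their values were seen. Doublets were called with Scrublet in scanpy 1.11.5 and kept, and TMM factors came from edgeR 4.0.16. Steps were tested on simulated data. The level of 1 marker gene is not reported here. Coordinates were read from the GENCODE M21 annotation (GRCm38, equal to mm10), which held 32158 of the 32285 gene identifiers. The alternatives tried were a stricter cell filter, removal of doublets, other limits on the capillary sum and on level, thinning, female-type cells only, cells with under 3 UMIs of other cell types, equal weight per cell, centring and TMM.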

Additional observations from a re-analysis of the deposited data

How the results depend on the processing

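No paired analysis was possible because there was 1 library per genotype, and no replicate could be left out. The share of members among kept cells was 17.3% in the mutant library with the stricter filter, 18.2% in the mutant and 11.3% in the control library after thinning, and 14.6% among female-type cells of the mutant library. Among non-cycling endothelial cells the mutant share was 76.5% after thinning and 68.4% for female-type cells. Members with under 3 UMIs of other cell types numbered 79 and 298 in the mutant and control library. They were 1.23% and 2.77% of all kept and 5.59% and 12.1% of all non-cycling endothelial cells. The order of the libraries turned, but the limit was set on members only, so these are no shares among cells under it. The counts of genes at least 1.5-fold higher and lower were 72 and 50 after thinning, 74 and 46 for female-type cells, 624 and 271 for these few cells, 18 and 13 at a mean CPM of at least 50 and 180 and 177 at 5. The other settings gave 39 to 51 higher and 26 to 35 lower. Thinning and the choices of cells leave fewer UMIs behind each ratio, and the level limits change the number of genes tested to 3149 and 9753. The cause of the differences between these counts was not tested. Of 30 named genes, 26 kept their sign in all 11 alternatives, and of 20 past 1.5-fold, Rsad2, Ccn3, Itgav, Galnt7, Peg10, Btg2, Gmfg, Rbp7 and Zfp945 stayed past it in all 11. Reversed ratios without an arterial UMI were -0.42 for Igfbp2 and -0.017 for Gja5, and Gja4, at 0 UMIs by that choice like Gja5, was also -0.017. With under 3 UMIs of other cell types they were -0.11 for Ddit4, 0.31 for Ddt, -0.31 for Kcnj8, 0.30 for Plvap, 1.33 for Procr and 0.23 for Rad17. Xist was 0.0043 in female-type cells. The cause was not tested. Of 253 recomputed list medians, 13 lay outside the interval of the main median. Genes under 20 CPM, and changes under 1.5-fold at low counts, could not be resolved at this depth.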
